A study of Mus musculus with 16 samples.

Results

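RNA levels of 10 genes of calcium signalling through calmodulin were compared over 4 RNA-seq libraries of cultured mouse neurons. The genes are the CaMKII genes Camk2a, Camk2b, Camk2d and Camk2g, the kinase gene Camk4, the kinase kinase genes Camkk1 and Camkk2, and the calcineurin genes Ppp3ca, Ppp3cb and Ppp3r1. They were taken by gene symbol, and all 10 were found among the 22440 genes of each deposited table. The cultures were primary cortical neurons of Swiss-Webster embryos at embryonic day 16. The first pair of libraries holds a control (here the etoposide control) and neurons given 5 µM etoposide, a drug that traps type II topoisomerases on broken DNA, for a time the labels do not give. The other pair holds a further control (the NMDA control) and neurons given NMDA, an agonist of a class of glutamate receptor. A dose of 50 µM NMDA, applied for 10 min and followed by 10 min of recovery, is stated for most of the study's experiments. The control titles name no treatment or vehicle, and no animal, culture or date is named. The other 12 samples of the series, which are chromatin samples, were not analysed here. With 1 library per group there is no replicate check and no p-value, and every difference below is one between 2 libraries.

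Calcium that enters a neuron binds calmodulin, and calcium-loaded calmodulin switches on the kinases and the phosphatase studied here. CaMKII is a large assembly of alpha, beta, gamma and delta subunits, abundant at excitatory synapses and needed for long-term potentiation. CaM kinase kinases phosphorylate and so activate CaMKIV, a mostly nuclear kinase that acts on the transcription factor CREB. Calcineurin, a pair of a catalytic A and a regulatory B subunit, removes phosphate from NFAT factors and from synaptic proteins, often against the kinases.

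Levels are FPKM as deposited by the authors, that is, fragments per transcript length and per library size. One fragment on 1 kb of transcript was worth about 0.0659 and 0.0759 FPKM in the etoposide control and its treated library, and 0.0496 and 0.0541 FPKM in the NMDA pair, so the NMDA pair was the deeper. Intervals below are exact 95% intervals made from fragment numbers that are approximate, and they cover only the error of counting. The libraries lay on different scales, since the median ratio over genes at FPKM of at least 5 was 0.787 for etoposide over its control, 1.03 for NMDA over its control and 2.88 for the NMDA control over the etoposide control. Relative log2 folds below are therefore log2((treated + 1)/(control + 1)) minus the median of all genes compared, where a gene was compared if it had an FPKM of at least 1 in either library. Neuronal markers were well above 0 in every library. In the order etoposide control, etoposide, NMDA control, NMDA, Tubb3 was at 209, 101, 606 and 653 FPKM and Slc17a7 of excitatory neurons at 25.4, 10.3, 115 and 115. Gad1 of inhibitory neurons was at 32.4, 20.1, 47.5 and 52.3, and Aldoc of astrocytes at 21.8, 11.5, 301 and 305. The summed FPKM of 9 astrocyte markers was 105, 55.1, 960 and 926, so the 2 pairs differed in more than scale. Oligodendrocyte lineage markers (8 genes) summed to 20.6, 5.39, 195 and 190 FPKM, progenitor markers (7) to 88.4, 30.7, 402 and 347, vascular markers (7) to 10.4, 1.18, 42.8 and 35.3, and microglial markers (8) to between 0.350 and 4.59. By mean FPKM over the 4 libraries the highest of these lists were Olig1, Vim, Acta2 and Aif1. The microglial C1qb and endothelial Cldn5 are listed at 0 in both libraries of the etoposide pair.

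All of the 10 genes but Camkk1 were among the better represented transcripts of these cultures, at percentile 79.3 of all genes (Camk4 with etoposide) or above. Camkk1 was the lowest of the 10 in every library, down to percentile 65.5 in the NMDA control. These ranks are among all 22440 genes, of which 12886 had an FPKM of at least 1 in the NMDA control. FPKM is per length, so levels of different genes can be set side by side. In the etoposide control the order was Ppp3ca at 69.5 FPKM, Camk2b at 65.1, Ppp3r1 at 45.4, Ppp3cb at 27.5, Camk2a at 21.4, Camk2g at 18.8, Camk2d at 18.7, Camkk2 at 11.2, Camk4 at 8.38 and Camkk1 at 3.86. The counting intervals of Ppp3ca and Camk2b overlapped, as did those of Camk2a and Camk2g and of Camk2g and Camk2d. In the NMDA control Ppp3ca and Camk2b again led with overlapping intervals, at 171 and 167 FPKM, and Camkk1 was last at 8.47. Ppp3cb and Camk2a, at 66.5 and 62.5, overlapped there as well. With etoposide the order differed, as Camk2b at 29.7 FPKM and Ppp3r1 at 28.5 (overlapping) stood above Ppp3ca at 19.0 and Ppp3cb at 18.9 (overlapping). The beta gene, not the alpha gene that dominates adult forebrain, thus held the highest CaMKII level in all 4 libraries.

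**Figure D1:**
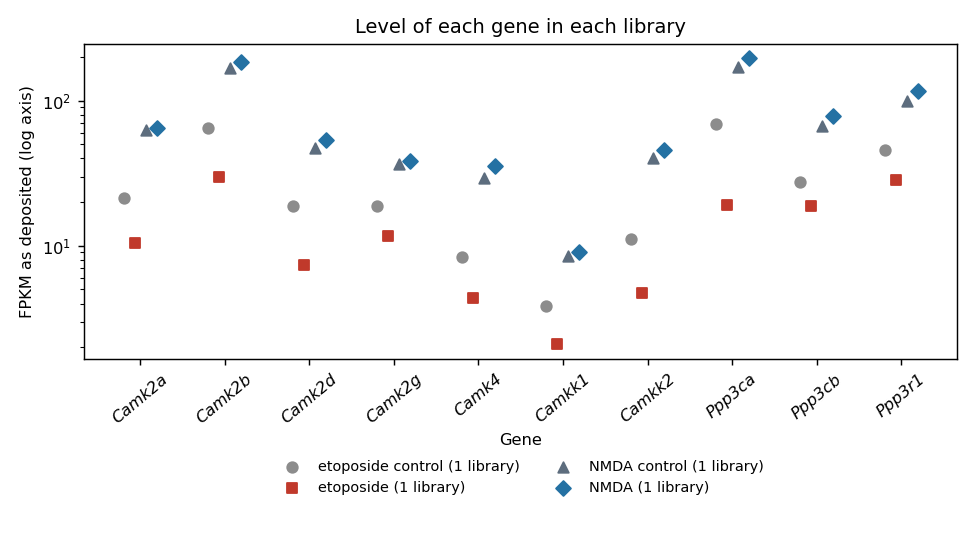
FPKM as deposited (vertical log axis) of each of the 10 genes in the 4 libraries, 1 point per library. Every gene lies lower in the etoposide library than in its control, from 3.86 and 2.09 FPKM for Camkk1 to 69.5 and 19.0 for Ppp3ca, and the NMDA pair lies above both.

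CaMKIV and calcineurin act on factors that bind promoters, so the 250 bases before the start were taken from RefSeq (GRCm38.p6) for a kinase and a kinase kinase gene that stood among the lowest with etoposide below, Camk2d and Camkk2, and for the 2 matched genes with a CREB half-site, Camkk1 and Ppp3r1. The matched genes are the 6 of the 10 whose entries were searched, all but Camk2a, Camk2g, Camk4 and Ppp3ca. Their absence from the search does not show that these 4 genes lack a RefSeq entry. The half-site of the cyclic AMP response element, bound by CREB, was searched as TGACG on both strands, and the full palindrome as TGACGTCA, which contains the half-site. Capitals mark half-sites. The regions are chr3:126596701-126596950 (plus strand) for Camk2d, chr5:122779411-122779660 (minus) for Camkk2, chr11:73018738-73018987 (plus) for Camkk1 and chr11:17159048-17159297 (plus) for Ppp3r1.
Camk2d: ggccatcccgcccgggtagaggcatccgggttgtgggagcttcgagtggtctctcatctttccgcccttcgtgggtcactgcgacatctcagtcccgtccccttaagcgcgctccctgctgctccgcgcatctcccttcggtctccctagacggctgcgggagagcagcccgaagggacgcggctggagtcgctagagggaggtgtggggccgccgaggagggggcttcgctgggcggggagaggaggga
Camkk2: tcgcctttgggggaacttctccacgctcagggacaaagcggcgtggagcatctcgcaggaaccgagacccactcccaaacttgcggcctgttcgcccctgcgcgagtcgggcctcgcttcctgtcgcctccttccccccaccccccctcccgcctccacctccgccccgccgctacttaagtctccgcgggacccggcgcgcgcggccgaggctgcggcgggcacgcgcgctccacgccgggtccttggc
Camkk1: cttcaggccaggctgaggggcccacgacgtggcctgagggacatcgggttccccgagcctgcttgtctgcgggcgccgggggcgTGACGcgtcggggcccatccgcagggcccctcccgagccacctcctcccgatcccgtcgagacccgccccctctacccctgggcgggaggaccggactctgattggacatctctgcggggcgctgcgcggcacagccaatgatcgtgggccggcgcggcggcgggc
Ppp3r1: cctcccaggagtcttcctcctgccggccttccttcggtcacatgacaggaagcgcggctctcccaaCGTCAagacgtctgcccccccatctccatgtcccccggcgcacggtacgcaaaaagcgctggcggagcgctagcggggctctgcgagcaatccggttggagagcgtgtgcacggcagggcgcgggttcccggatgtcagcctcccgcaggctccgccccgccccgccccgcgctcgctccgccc
A half-site was found in Camkk1, with its first base at position -166 counted from the start, and on the opposite strand in Ppp3r1 at -184, and in none of the other 4 matched promoters. The full palindrome was found in none of the 6. Over the 32851 RefSeq promoters of this length that were searched, 17.8% held the half-site and 1.55% the palindrome. The 4 printed sequences are rich in G and C, at 68.4% for Camk2d, 72.4% for Camkk2, 74.4% for Camkk1 and 70.8% for Ppp3r1, against a median of 52.4% over all these promoters. Of the matched promoters not printed, Camk2b was at 78.4% and Ppp3cb, below that median, at 48.4%.

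With etoposide all 10 genes were lower than in the control, where 76.7% of the 10681 genes compared were lower as well. On the log2(FPKM + 1) scale, 4 of the 10 (Camk2b, Camk2d, Camkk2 and Ppp3ca) were at least 2-fold lower, against 7.36% of all genes, and none was at least 2-fold higher, against 0.477%. After median scaling, 1 of the 10 (Ppp3ca) was at least 2-fold lower. The 7.36% is for values as deposited, and the share of all genes after scaling was not computed. The median log2 fold of the 10 genes was -0.89, and that of all genes was -0.32. The authors' deposited table for etoposide lists 3 of the 10, Ppp3ca, Camk2d and Camkk2, all lower, where 6.28% of the genes compared are listed and lower and 0.0936% listed and higher. In bulk RNA, fewer cells of a type and less RNA per cell cannot be told apart. Excitatory neuron markers had a relative median of -0.63, pan-neuronal markers of -0.46 and inhibitory neuron markers of -0.10 in the same comparison, while astrocyte markers stood at -0.55 and progenitor markers at -1.18. Of the 7 progenitor markers only 3 were compared, Nes at -1.18, Vim at -1.21 and Sox2 at -0.29. The part of these marker lists in the values of the 10 genes was not tested.

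Ppp3ca, which encodes the alpha isoform of the calcineurin catalytic subunit, stood farthest from its control. It lies on chromosome 3, 136333734 to 136598743 (mm9, plus strand), and its level was 69.5 FPKM in the etoposide control and 19.0 after the drug, and 171 and 196 FPKM in the NMDA pair. The etoposide library was the lowest of the 4. It was 3.65-fold lower with etoposide (interval 3.32 to 4.01) and is on the authors' deposited table. Its relative log2 fold of -1.49 placed it at percentile 0.272 of all genes compared.

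Its partners in the same enzyme differed far less from the control. Ppp3cb, the beta isoform of the catalytic subunit (chromosome 14, deposited locus 21318536 to 21437576, minus strand), was at 27.5, 18.9, 66.5 and 78.4 FPKM in the etoposide control, etoposide, NMDA control and NMDA libraries. It was 1.46-fold lower with etoposide (interval 1.33 to 1.59), with a relative log2 fold of -0.20, the smallest of the 10. Ppp3r1, the calcium-binding regulatory B subunit (chromosome 11, 17059301 to 17100383, plus strand), was at 45.4, 28.5, 99.2 and 116 FPKM and 1.60-fold lower (1.48 to 1.72). The annotated exons of Ppp3r1 share 462 bases with Wdr92 on the same strand, so a part of its reads is uncertain.

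Ratios between 2 genes of 1 library do not depend on that library's scale, and they set Ppp3ca apart from Ppp3cb and Ppp3r1. Ppp3ca over Ppp3cb was 2.53 in the etoposide control (2.36 to 2.71), 2.57 in the NMDA control (2.48 to 2.67) and 2.50 with NMDA (2.41 to 2.59). With etoposide it was 1.01 (0.904 to 1.13), so only there among the 4 libraries did the interval include equal FPKM of these 2 genes. Ppp3ca thus made up 71.6%, 72.0% and 71.4% of the summed FPKM of Ppp3ca and Ppp3cb in the etoposide control, NMDA control and NMDA libraries and 50.2% with etoposide. The further subunit gene Ppp3cc was not part of this sum. It was at 4.80 and 3.46 FPKM in the etoposide control and etoposide libraries and 21.8 and 22.5 in the NMDA pair. Ppp3ca over Ppp3r1 was 1.53, 1.72 and 1.68 in the same 3 libraries and 0.669 with etoposide (0.602 to 0.742). Ppp3cb over Ppp3r1, in contrast, was 0.605 and 0.662 in the etoposide pair and 0.670 and 0.673 in the NMDA pair, and the intervals of the etoposide library and of its control overlapped. Camk2b over Ppp3ca, a kinase gene over a phosphatase gene, was 0.938, 0.976 and 0.938 without etoposide and 1.56 with it (1.40 to 1.75).

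**Figure D2:**
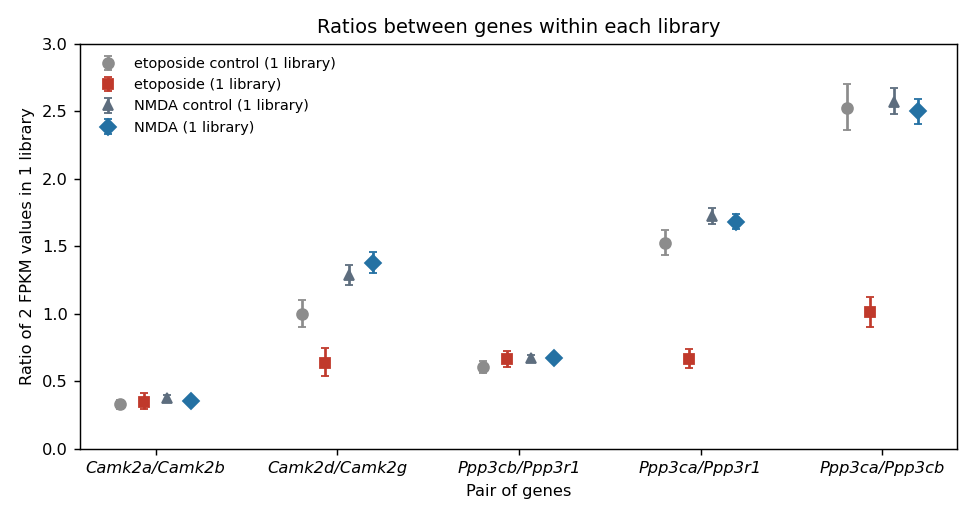
Ratio of the FPKM values of 2 genes within a library (vertical axis) for 5 gene pairs in the 4 libraries; bars are exact 95% counting intervals. Ppp3ca/Ppp3cb lies between 2.50 and 2.57 in 3 libraries and at 1.01 with etoposide, while Camk2a/Camk2b lies between 0.329 and 0.374 in all 4.

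Among the CaMKII genes, Camk2d, which encodes the delta subunit (chromosome 3, 126299891 to 126547972, plus strand), stood lowest against its control. It was at 18.7, 7.40, 47.4 and 53.2 FPKM in the etoposide control, etoposide, NMDA control and NMDA libraries, and 2.53-fold lower with etoposide (2.16 to 2.96). It is on the authors' deposited table, and its promoter is printed above. Camk2b (beta, chromosome 11, 5869669 to 5965751, minus strand) was at 65.1, 29.7, 167 and 184 FPKM and 2.19-fold lower (2.01 to 2.38). Camk2a (alpha, chromosome 18, 61085286 to 61147806, plus strand) was at 21.4, 10.4, 62.5 and 64.6 FPKM and 2.06-fold lower (1.73 to 2.46) by the plain ratio. Neither of these is in the authors' deposited table. Camk2g (gamma, chromosome 14, 21554097 to 21613310, minus strand) was at 18.8, 11.6, 36.9 and 38.6 FPKM and 1.62-fold lower (1.46 to 1.80).

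The ratio of the alpha to the beta gene had overlapping intervals in all 4 libraries, and that of the delta to the gamma gene did not. Camk2a over Camk2b was 0.329, 0.349, 0.374 and 0.351 in the etoposide control, etoposide, NMDA control and NMDA libraries. Camk2d over Camk2g was 0.996 in the etoposide control (0.900 to 1.10) and 0.637 with etoposide (0.542 to 0.747). It was also 1.29 in the NMDA control and 1.38 with NMDA, so it differed between the untreated controls as well. Camk2g took 19.6% of the summed CaMKII FPKM with etoposide against 15.1% in its control, and Camk2d took 12.5% against 15.1%. Camk2b held 50.3% of the CaMKII sum with etoposide and between 52.5% and 54.0% in the other libraries.

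The kinases of the nuclear CaMKIV branch were lower with etoposide too. Camkk2, the more abundant of the CaM kinase kinase genes (chromosome 5, 123181180 to 123229419, minus strand), was at 11.2, 4.74, 40.2 and 46.0 FPKM in the etoposide control, etoposide, NMDA control and NMDA libraries, and 2.35-fold lower with etoposide (1.92 to 2.90), and it is on the authors' deposited table. Camk4 (chromosome 18, 33098695 to 33355421, plus strand) was at 8.38, 4.35, 29.5 and 35.4 FPKM and 1.93-fold lower (1.70 to 2.18). Camkk1 (chromosome 11, 72832510 to 72855567, plus strand) was at 3.86, 2.09, 8.47 and 9.04 FPKM and 1.85-fold lower, with the widest interval of the 10 (1.35 to 2.55, from about 131 and 61 fragments). Exons of Camk4 share 182 bases with 2310026I22Rik on the opposite strand. Camkk2 over Camkk1 was 2.89 in the etoposide control and 2.27 with etoposide, with overlapping intervals, and 4.74 and 5.09 in the NMDA pair. This ratio differed more between the 2 controls than within either pair.

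**Figure D3:**
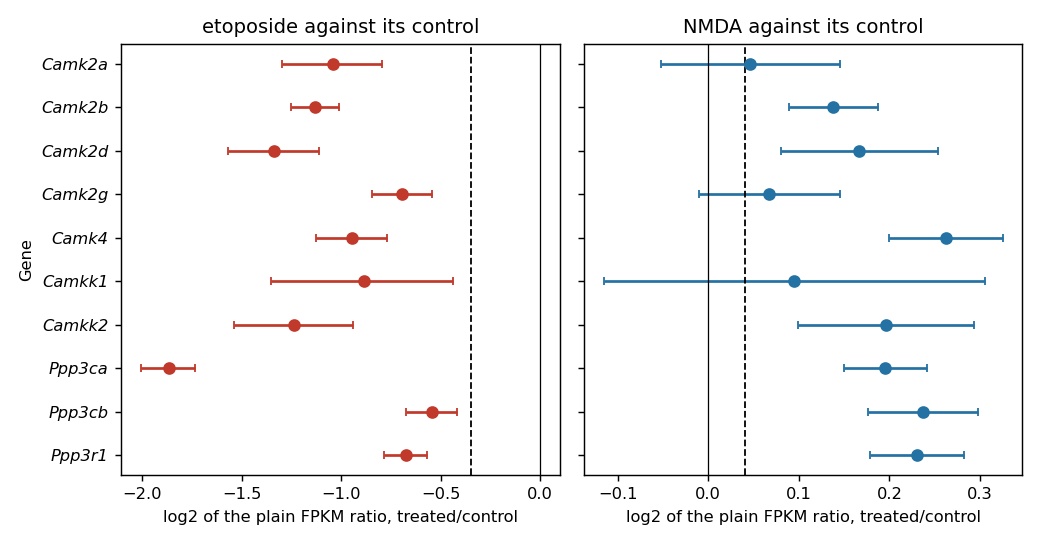
Log2 of the plain FPKM ratio of treated over control (horizontal axis) for each gene, with exact 95% counting intervals, for etoposide (left) and NMDA (right; the axes differ in range). Dashed lines mark the median ratio of genes at FPKM of at least 5 (0.787 and 1.03). All 10 etoposide intervals lie below the line and 7 of 10 NMDA intervals lie above it. Intervals were made for the 10 genes only, so no share of all genes stands beside these counts.

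Against the NMDA control in place of its own, and after median scaling, the etoposide library kept 6 of the 10 genes below the median of all genes. Ppp3ca was then at a scaled ratio of 0.443 (interval 0.405 to 0.483), Camkk2 at 0.470 (0.390 to 0.562), Camk4 at 0.587, Camk2d at 0.621, Camk2a at 0.661 and Camk2b at 0.709. Camk2g at 1.25 (1.14 to 1.37), Ppp3r1 at 1.14 and Ppp3cb at 1.13 lay on the other side of 1, and Camkk1 at 0.982 had an interval of 0.737 to 1.29. The lower position of Camk2g, Ppp3r1 and Ppp3cb therefore depended on the control. For Camkk1 the interval overlapped that against its own control (0.498 to 0.938), so whether its position depended on the control was not resolved. Between the untreated controls, after the same scaling, the ratios of the NMDA control over the etoposide control ran from 0.681 for Camk2g to 1.25 for Camkk2. The etoposide comparison, which shares the etoposide control with this one, gave scaled ratios of 0.348 (0.317 to 0.382) for Ppp3ca, 0.503 (0.429 to 0.588) for Camk2d, 0.540 (0.438 to 0.662) for Camkk2 and 0.580 (0.533 to 0.631) for Camk2b. These 4 genes stood farther from 1 with etoposide than any of the 10 did between the untreated controls. Camk2a at 0.617 (0.517 to 0.733) and Camk4 at 0.660 (0.583 to 0.746) had intervals that reach into the range between controls.

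The 10 genes differ widely in genomic span. By the GENCODE annotation on mm9 they span from 23.1 kb for Camkk1 to 268 kb for Ppp3ca, with Camk4 at 257 kb, Camk2d at 249 kb and Camk2b at 96.7 kb. The remaining genes are Camk2a at 62.5 kb, Camk2g at 59.2 kb, Ppp3cb at 47.2 kb, Camkk2 at 46.2 kb and Ppp3r1 at 41.1 kb. The deposited locus of Ppp3cb, 119 kb, also covers Usp54 and 1810062O18Rik, so the annotated span, an alternative chosen after seeing this, is used below beside the deposited one. Over the 10 genes, log2 fold and annotated span had a Spearman's rho of -0.64 with etoposide and 0.18 with NMDA, and by the deposited loci -0.48 and 0.42, a description of 10 genes that share the same libraries and their depth.

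Set against groups of genes by span, most of the 10 remained below the median of their group with etoposide. When all genes were put in 5 equal groups by annotated span, the longest group had a median log2 fold of -0.69 and the shortest group of -0.08. The longest group had a median span of 137 kb, so Ppp3ca, Camk4 and Camk2d are longer than most genes they are set against. Ppp3ca differed from the median of its own group by -1.13, at percentile 0.284 of those genes (by the deposited loci -1.15 and percentile 0.375). Camkk2 lay at percentile 4.17 of its group with a span of only 46.2 kb, Camk2a at 6.78, Camk2d at 9.67, Camkk1 at 14.4 and Camk2b at 15.3. Ppp3r1 lay at percentile 24.5 and Camk2g at 25.2. Camk4, as long as Camk2d, lay at percentile 37.6, closer to the median of its group, and Ppp3cb at 37.7. All 10 were below the median of their group, but by the deposited loci, which put Ppp3cb among the longest genes, 9 were. Ppp3ca and Camk4 are of nearly the same span and differed by a whole unit of log2 fold, at -1.81 and -0.81.

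**Figure D4:**
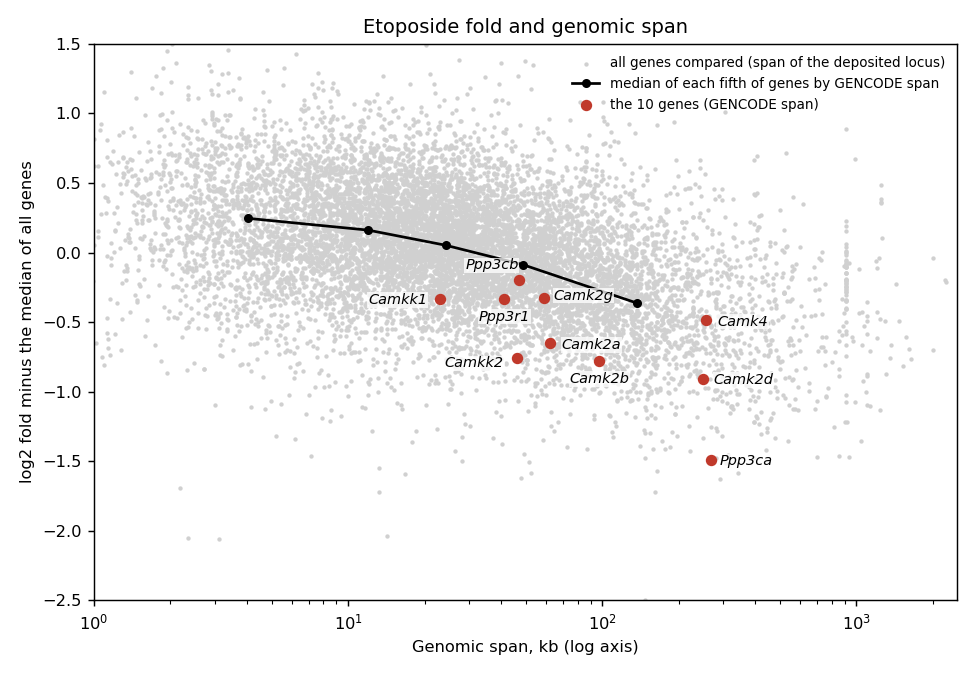
Genomic span (horizontal log axis, kb) and log2 fold with etoposide minus the median of all genes (vertical axis) for the 10 genes in red (annotated span) and all genes in grey (span of the deposited locus); 154 of the genes compared lie outside the drawn range. The black line joins the medians of 5 equal groups by annotated span, and Ppp3ca lies farthest below it.

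With NMDA all 10 genes were slightly higher than in the control, where 57.2% of the 13028 genes compared were higher. None of the 10 was at least 2-fold higher or lower, against 0.438% and 0.729% of all genes, and none is on the authors' deposited table for NMDA, where 0.192% of the genes compared are listed and higher and 0.292% listed and lower. The log2 folds ran from 0.05 for Camk2a to 0.25 for Camk4, with a median of 0.18 against 0.02 for all genes. Camk4 at 29.5 and 35.4 FPKM was 1.20 times its control (1.15 to 1.25), Ppp3cb 1.18 times (1.13 to 1.23) and Ppp3r1 1.17 times (1.13 to 1.22). Camkk2 at 1.15 and Ppp3ca at 1.15 times the control followed, with Camk2d at 1.12 and Camk2b at 1.10. For these 7 the counting interval lay above the median ratio of genes at FPKM of at least 5 (1.03). For Camk2a, Camk2g and Camkk1 it included that ratio. The share of all genes with an interval above it was not computed. Against the etoposide control with median scaling, 8 of the 10 were below the median of all genes, Camk4 (scaled ratio 1.41) and Camkk2 (1.38) being above. The side of the all-gene median on which a gene lay thus changed with the control for 8 genes. For some of these the counting interval included the median ratio. Against the etoposide control these were Camk2a (scaled ratio 1.01, 0.907 to 1.12), Camk2d (0.952, 0.871 to 1.04) and Ppp3cb (0.953, 0.897 to 1.01). The untreated NMDA control over the same etoposide control gave scaled ratios of 1.22 for Camk4 and 1.25 for Camkk2.

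The other genes of the pathway were read from lists made for this comparison. Calm2 and Calm3, which encode calmodulin, stood above all 10 kinase and calcineurin genes in every library. Calm2 was at 342 FPKM in the etoposide control and 283 with etoposide, and Calm3 at 227 and 126, and neither was at least 2-fold lower. With NMDA, Calm3 was at 1046 and 1079 FPKM. Of 6 proteins that hold calmodulin in reserve in neurons or share that domain, none was at least 2-fold lower with etoposide. Farthest from the median of all genes were Basp1 with etoposide, at 186 and 105 FPKM, and Pcp4 with NMDA, at 85.0 and 75.2. The CaMKII inhibitor Camk2n1 was at 13.1 and 8.14 FPKM with etoposide, and its relative Camk2n2 at 66.8 and 75.9 with NMDA.

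Of 10 other enzymes that calcium-calmodulin activates, 6 were at least 2-fold lower with etoposide (7.36% of all genes) and all 10 lower (76.7% of all genes), with a median log2 fold of -1.12 against -0.32 for all genes. The plasma membrane calcium pumps Atp2b4 (10.8 and 2.46 FPKM), Atp2b2 (17.8 and 5.01) and Atp2b1 (32.8 and 12.4), which expel calcium from the cell, and Itpka (6.44 and 2.12), an inositol trisphosphate kinase, were the 4 farthest from their control. The authors' deposited table lists 4 of the 10, Atp2b4, Atp2b2 and Itpka among them, and 6.28% of all genes as listed and lower. Of 8 other calmodulin-dependent kinases compared, Camk1d (7.13 and 1.63 FPKM) and Dapk1 (7.11 and 2.83), a death-associated kinase, were at least 2-fold lower, and both are on the authors' deposited table. With NMDA none of either list was at least 2-fold higher or lower. Farthest from the median of all genes with NMDA were Itpkb at 4.12 and 3.06 FPKM and Pnck at 33.2 and 30.2.

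Regulators and targets of calcineurin and the kinases were read in the same way, beside the 7.36% of all genes at least 2-fold lower with etoposide. None of 8 calcineurin regulators and further subunits was at least 2-fold lower with etoposide, where Ppia, the cyclophilin through which cyclosporin inhibits calcineurin, was at 203 and 209 FPKM. Rcan1, a calcineurin inhibitor protein, was at 23.3 and 21.6 FPKM with NMDA. The NFAT factors were low, with 2 of 5 compared with etoposide, neither at least 2-fold lower (Nfat5 at 1.55 and 1.14 FPKM). Nfatc2 was at 3.41 and 4.82 FPKM with NMDA. Of 12 transcription factors and cofactors that these enzymes act on, 11 were lower with etoposide, where 76.7% of all genes were. Their relative median was -0.37. Mef2c, a neuronal MADS-box factor, was the 1 at least 2-fold lower with etoposide, at 52.8 and 13.5 FPKM. Mef2c and Hdac4 (4.93 and 2.05 FPKM), a histone deacetylase that CaM kinases keep out of the nucleus, are on the authors' deposited table. Of all genes compared, 6.28% are listed there and lower. Crem was higher with etoposide, at 1.75 and 3.67 FPKM, which is under 2-fold on the log2(FPKM + 1) scale. Crem, a relative of CREB, was the farthest of that list from all genes with NMDA, at 4.74 and 6.18 FPKM. The AMPK subunits, whose kinase Camkk2 activates, had a median log2 fold of -0.32 with etoposide, equal to that of all genes, and a relative median of 0.06 with NMDA, with Prkag1 at 5.09 and 6.27 FPKM in the first and Prkaa2 at 9.14 and 10.8 in the second.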

How the data were processed

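Total RNA was made into paired-end libraries (the labels' protocols), with 1 library per group. Names in the submitters' processing notes, with no role or order, are Bowtie, TopHat, Cuffdiff, Cufflinks 2.0.0, HOMER, Picard, BWA and the build mm9. The authors made the FPKM values, which were taken as deposited from 1 table per library. Their 2 deposited comparison tables were used only for which genes they list, and their 4 FPKM columns were not used. No source used here gives the rule of listing. Groups follow the sample titles, and the NMDA library was compared with the control numbered 2. These 10 genes and the lists of pathway and marker genes were chosen with earlier results of these data known.

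For genes at FPKM of at least 1 in either library, folds are the log2 of (treated + 1) over (control + 1). This pseudocount of 1 FPKM understates changes of low genes. The size rule is 2-fold. Plain ratios are given with exact (Clopper-Pearson) 95% intervals, from fragment numbers approximated by the median coding transcript length in GENCODE and the FPKM of 1 fragment on 1 kb, read from single-exon genes of 1 to 6 kb. Median scaling divides the treated library by the median ratio of genes at FPKM of at least 5 in both. Loci had 1 added to their start. GENCODE matched 21488 symbols, 99.3% of them overlapping the deposited locus. Named genes are the 10 genes, the genes of each pathway list past 2-fold or in the authors' deposited table (up to 4) or else the one with the largest relative fold, and the highest marker of each list. Calm2 and Crem with etoposide, and Calm3 with NMDA, were named after their values were seen. A result of the pathway lists is not reported here. Calculations used Python 3.11.15, pandas 2.3.3 and scipy 1.17.1 and were tested on simulated data. No paired analysis was possible because each group has 1 library.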

Additional observations from a re-analysis of the deposited data

How the results depend on the processing

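Relative to all genes, the etoposide median of the 10 genes was -0.57 and stayed between -0.53 and -0.58 with a pseudocount of 0.1 FPKM, with FPKM of at least 5 and with median scaling. It was -0.87 with no level filter, -0.80 against the other control and -0.44 against the other control with median scaling. With genes of the same group by span (5 groups) as the reference, which was chosen after seeing the data, it was -0.41. The 4 genes at least 2-fold lower with etoposide became 1 with median scaling (Ppp3ca), 2 against the other control with median scaling, 10 against the other control, 9 at a size rule of 1.5-fold and 5 with a pseudocount of 0.1 FPKM. The NMDA median of 0.15 took the opposite sign against the other control with median scaling (-0.14), and the 0 genes at least 2-fold higher became 10 against the other control as deposited, where the pairs differ in scale. The median ratio of genes at FPKM of at least 5 was there 0.251 for etoposide and 2.99 for NMDA, itself past 2-fold. For these changed settings no share of all genes past the size rule was computed. Between the untreated controls the relative median of the 10 genes was -0.03, and -0.29 with median scaling, chosen after seeing the data. Of single genes, relative log2 folds that changed sign with etoposide were Camk2g (0.0832 against the other control, 0.42 with scaling added), Camkk1 (0.05 and 0.07) and, with scaling only, Ppp3cb (0.27) and Ppp3r1 (0.29). With NMDA they were Ppp3r1 (-0.0166 against the other control, -0.28 with scaling added), Camk2g (-0.35 and -0.57), Camkk1 (-0.31 and -0.34) and, with scaling only, Camk2a (-0.05), Camk2b (-0.15), Camk2d (-0.13), Ppp3ca (-0.15) and Ppp3cb (-0.13). Ratios within a library do not depend on the pseudocount, the level filter or the scaling, but their comparison depends on the control. In the etoposide control and the NMDA control, Camk2d over Camk2g was 0.996 and 1.29 and Camkk2 over Camkk1 2.89 and 4.74. Ppp3ca over Ppp3r1 was 1.53 and 1.72 there, and Ppp3ca over Ppp3cb 2.53 and 2.57. No paired analysis was possible because each group has 1 library. Depth left Camkk1 the least precise of the 10.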

Other observations

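Camk1d, a calmodulin-dependent kinase gene, was at 7.13 FPKM in the etoposide control and 1.63 with etoposide, and it is listed at 0 in both libraries of the NMDA pair. Of 5325 genes at FPKM of at least 5 in the etoposide control and above 0 with etoposide, 16 are listed at 0 in both libraries of the NMDA pair.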
